A study of Mus musculus with 407 samples.

Results

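The genes described here encode the channels that carry the muscle action potential and pass it to the interior of the fibre. They were taken by name and are 7 of the 24458 gene symbols in the count tables: Scn4a, Scn4b and Scn3b (voltage-gated sodium channel), Clcn1 (chloride channel), and Cacna1s, Cacnb1 and Cacng1 (L-type calcium channel). All 7 of 7 were found in every table. The samples were strand-specific total RNA libraries from male and female C57BL/6J mice, which carried no transgene and received no treatment, with 6 to 10 libraries for each sex, age and muscle. Diaphragm, gastrocnemius, soleus and tibialis anterior were taken at 6 months of age and at 12, 18, 21, 24 and 27 months. Mice were bought at different ages and held in 1 facility before collection, and each age group was collected on 1 day, so age and collection day cannot be told apart. No label ties the muscles of a mouse to each other.

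In skeletal muscle, a nerve impulse opens acetylcholine receptors, and the endplate current opens sodium channels whose pore is NaV1.4, the product of Scn4a. The action potential spreads over the surface and down the transverse tubules, while chloride flow through ClC-1, the product of Clcn1, holds the membrane near rest and limits repeated firing. In the tubules the L-type channel acts as the voltage sensor: Cacna1s encodes its pore CaV1.1, Cacnb1 the intracellular β1 subunit that places the channel at the triad, and Cacng1 the γ1 subunit, which damps calcium entry. Loss of ClC-1 gives myotonia, and changes in NaV1.4 or CaV1.1 give periodic paralyses.

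Promoter windows from RefSeq (GRCm38.p6, the 250 bases before an annotated start) were found for 5 of the 7 genes, as 6 windows. The windows of Clcn1, Scn4a and Cacnb1 lie inside the gene bounds given below, so their starts are not the outermost ones. Those of Clcn1, Cacna1s and 1 of the pair of Cacnb1 windows are shown because they hold a motif that muscle transcription factors can bind. Binding was not measured here. That of Cacna1s is shown up to the first annotated exon base, 189 of its 250 bases. Capitals mark E-boxes (CANNTG, the letters bound by MyoD and myogenin, the same on both strands) and, in Clcn1, the longer MEF2 motif CTATAAATAG, which contains a TATAAA box.
Clcn1, chr6:42286435-42286684, plus strand: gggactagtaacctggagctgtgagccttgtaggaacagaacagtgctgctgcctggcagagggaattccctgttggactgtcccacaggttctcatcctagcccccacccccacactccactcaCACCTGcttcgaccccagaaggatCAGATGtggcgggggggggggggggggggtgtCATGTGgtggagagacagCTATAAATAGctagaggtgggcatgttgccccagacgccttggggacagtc
Cacna1s, chr1:136052561-136052749, plus strand: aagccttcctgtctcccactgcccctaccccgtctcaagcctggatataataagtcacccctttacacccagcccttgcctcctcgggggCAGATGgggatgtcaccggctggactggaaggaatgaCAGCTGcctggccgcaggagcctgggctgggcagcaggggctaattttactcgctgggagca
Cacnb1, chr11:98018373-98018622, minus strand: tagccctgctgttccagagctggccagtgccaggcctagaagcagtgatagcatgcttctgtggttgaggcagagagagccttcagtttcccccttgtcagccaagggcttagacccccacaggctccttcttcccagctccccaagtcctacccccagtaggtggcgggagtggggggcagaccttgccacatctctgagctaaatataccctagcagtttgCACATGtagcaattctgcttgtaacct
The Clcn1 window held 3 E-boxes, at −125, −101 and −69 from the start, and the MEF2 motif at −51. Of all 32851 windows of the same length, 66.2% held an E-box, 12.2% held at least 3, 2.92% held the MEF2 motif and 7.59% held TATAAA on the strand read. Cacna1s held 2 E-boxes, at −160 and −123, and the second Cacnb1 window held 1, at −27. By gene, 3 of the 5 with a window held an E-box, a motif of 66.2% of all windows. Neither the presence nor the absence of such letters says anything about binding. In the windows of Scn4a and Scn4b and the first window of Cacnb1 these letters were absent. Of those windows, 186 of 250 bases of the Scn4a one and 229 of 250 of the Scn4b one lie in annotated exons.

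On mm10 the genes lie at chr11:106317545-106365559 (Scn4a, minus strand), chr9:45138624-45154155 (Scn4b, plus), chr9:40269216-40291618 (Scn3b, plus), chr6:42284851-42315764 (Clcn1, plus), chr1:136052806-136119822 (Cacna1s, plus), chr11:98001508-98023034 (Cacnb1, minus) and chr11:107703218-107716476 (Cacng1, minus). Scn3b and Cacna1s overlap annotated antisense transcripts, and the 3′ end of Clcn1 overlaps Fam131b on the other strand. The libraries were strand-specific, but no source used here says whether the counting used the strand, so a share of reads from these neighbours in the counts was not tested.

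Levels are given as CPM, the count of a gene divided by the scaled total of its library in units of 1000000 counts. Totals were scaled by TMM (trimmed mean of M values) over all libraries together. Unscaled totals ranged from 38583802 to 300089909 counts on genes, with a median of 72766895. Markers of muscle fibres were present in every group: the median sum of 9 markers at 6 months was 83421 CPM in male and 79451 in female gastrocnemius, 71099 and 69911 in tibialis anterior, 34706 and 29310 in soleus, and 22234 and 15085 in diaphragm. By correlation, total or liver transcripts, 34 libraries stood apart from the rest of their muscle and sex, of which 7 were of 50 female and 5 of 48 male diaphragm libraries. In female diaphragm the 7 libraries had a median fibre marker sum of 12373 CPM against 21043 in the other 43, and a median Cacng1 of 2.30 CPM against 8.27, Cacnb1 of 8.00 against 31.6 and Scn4a of 116 against 224. The same comparison in males gave 11732 CPM against 22795 for the fibre markers and 165 against 249 for Scn4a. Only Scn3b was higher there by its median, at 8.48 CPM against 5.54 in females and 9.72 against 6.53 in males. How far these libraries set the results was measured by leaving them out, and the values are given beside the calls at 27 months that were lost without them. In whole muscle, fewer fibres and less RNA per fibre cannot be told apart.

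To see where the channel genes are expressed, the 4 muscles were compared at 6 months (n = 8 libraries each). Adjusted p-values here and below are from the quasi-likelihood test of edgeR, adjusted by Benjamini-Hochberg over all genes tested, and a gene is said to have risen, fallen or differed at an adjusted p below 0.05. Fold changes are fitted values on the log2 scale, with TMM scaling done within each fit. They can differ slightly from the ratio of the CPM medians.

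For 6 of the 7 genes the order was the same in both sexes: gastrocnemius and tibialis anterior at the top, soleus between, and diaphragm at the bottom. Scn3b went the other way. Cacng1 had the widest range. In males it had 125, 139 and 150 CPM (lowest, median and highest library) in gastrocnemius, 95.8, 103 and 106 in tibialis anterior, 19.1, 25.0 and 30.8 in soleus and 0.446, 10.1 and 15.6 in diaphragm. No soleus library reached the level of a gastrocnemius or tibialis anterior library. On the log2 scale the diaphragm lay 3.91 below the gastrocnemius in males (a log2 difference of −3.91 ± 0.18 SE, adjusted p = 6.43e-50) and 4.09 below in females (−4.09 ± 0.21, adjusted p = 8.82e-46). Without the libraries that stood apart these differences were −3.60 and −3.86. The libraries of gastrocnemius and tibialis anterior did not overlap in males, but the fitted difference missed the threshold (0.39 ± 0.16, adjusted p = 0.0956; without the libraries that stood apart 0.43, adjusted p = 0.000424).

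**Figure D1:**
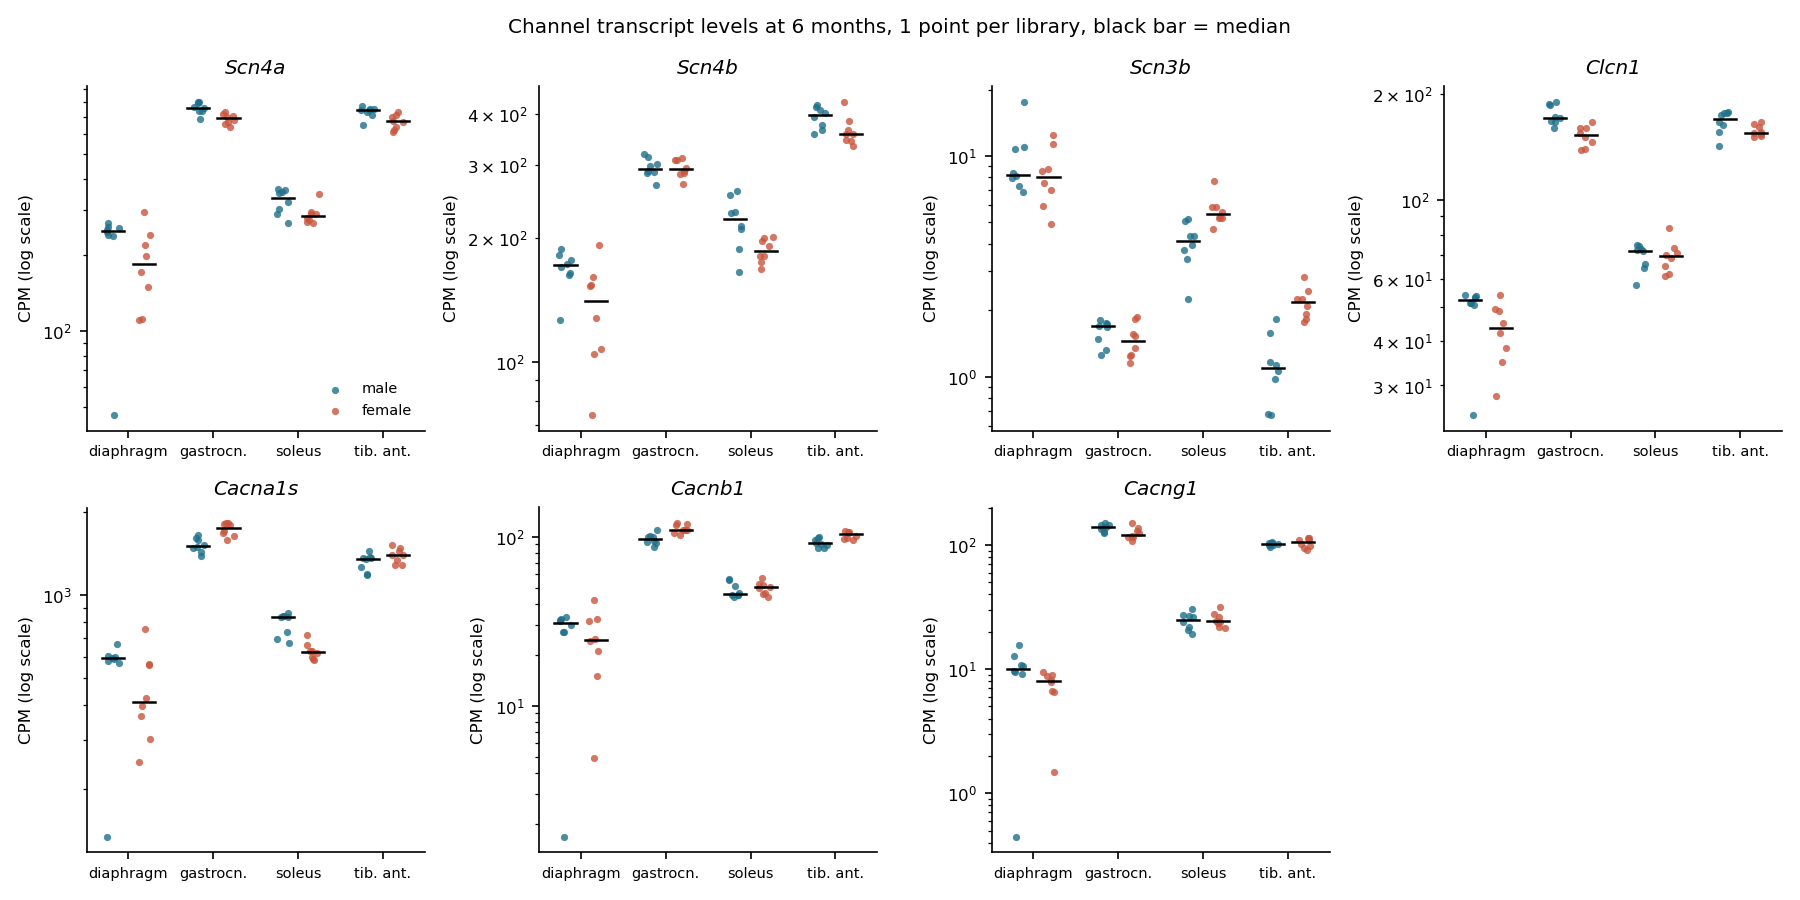
Levels of the 7 channel genes at 6 months in each muscle, as CPM on a log axis. Each point is 1 library (males and females apart, n = 8 each) and the black bar is the median; 6 genes lie lowest in the diaphragm and Scn3b lies highest there, and the single low diaphragm points belong to libraries that stood apart.

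Scn4a had a median of 763 CPM in male gastrocnemius (687 to 806), 749 in tibialis anterior (652 to 774), 337 in soleus (267 to 366) and 248 in diaphragm (46.6 to 268). Gastrocnemius and tibialis anterior overlapped, with no difference called (0.00 ± 0.11 on the log2 scale, adjusted p = 0.99), and both lay above soleus by about the same step (1.23 ± 0.11 for gastrocnemius, adjusted p = 1.85e-20). Clcn1 followed Scn4a. Its male medians were 171, 170, 72.0 and 52.3 CPM in the same order, and gastrocnemius lay above soleus by 1.34 ± 0.12 (adjusted p = 3.88e-22). Within a library Clcn1 had a median of 20.5 to 23.9 counts for every 100 counts of Scn4a in each of the 8 groups of muscle and sex at 6 months.

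The pore gene Cacna1s had male medians of 1503 CPM in gastrocnemius, 1354 in tibialis anterior, 834 in soleus and 592 in diaphragm, and the β1 gene Cacnb1 96.4, 91.5, 46.0 and 30.8. Diaphragm lay below soleus for Cacna1s by −0.64 ± 0.12 in males (adjusted p = 1.91e-06) and −0.48 ± 0.12 in females (adjusted p = 0.00018), and for Cacnb1 by −0.94 ± 0.16 (adjusted p = 6.11e-08) and −1.04 ± 0.18 (adjusted p = 9.81e-08). Scn4b, which encodes the β4 sodium channel subunit, had the flattest profile of the 6. Its male medians were 397 CPM in tibialis anterior, 294 in gastrocnemius, 221 in soleus and 171 in diaphragm. It was the only one of these 6 genes that differed between gastrocnemius and tibialis anterior, by −0.46 ± 0.11 in males (adjusted p = 0.000653) and −0.31 ± 0.09 in females (adjusted p = 0.0105), with the lower level in gastrocnemius.

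Scn3b, which encodes the β3 subunit known mainly from neurons and heart, was rare in all muscles. In males it had 6.89, 8.23 and 17.6 CPM in diaphragm, 2.26, 4.14 and 5.19 in soleus, 1.25, 1.69 and 1.81 in gastrocnemius and 0.669, 1.09 and 1.82 in tibialis anterior. Every male diaphragm library lay above every male library of the other muscles. The diaphragm exceeded gastrocnemius by 2.51 ± 0.22 on the log2 scale in males (adjusted p = 1.59e-22) and 2.51 ± 0.18 in females (adjusted p = 3.03e-29). The step over soleus was 1.17 ± 0.21 in males (adjusted p = 3.24e-07) and 0.54 ± 0.17 in females (adjusted p = 0.00328). In females, averaging the 6 ages in place of 6 months turned the latter to −0.07. For gastrocnemius minus tibialis anterior the estimates had opposite signs, and only the female one was called. Males had 0.44 ± 0.21 (adjusted p = 0.169) and females −0.56 ± 0.18 (adjusted p = 0.0136). Whether the sexes differed in this step was not tested.

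Counted over the pairs of muscles, all 7 genes differed in each pair other than gastrocnemius against tibialis anterior, in which 1 of 7 differed in males and 2 of 7 in females. Muscles differ in most of their genes, so these counts stand beside high shares of all genes tested. In males 64.1% of genes differed between diaphragm and gastrocnemius, 52.5% between diaphragm and soleus, 65.6% between diaphragm and tibialis anterior, 45.1% between gastrocnemius and soleus, 14.2% between gastrocnemius and tibialis anterior and 45.4% between soleus and tibialis anterior. The shares in females were 71.5%, 59.4%, 74.3%, 49.2%, 17.2% and 55.4% in the same order. The 73 of 84 tests that passed ranged from 66 to 77 under the other settings. With library size as the only scaling, the median of all genes moved by up to 1.15 between muscles, and the male diaphragm minus soleus difference of Scn4b turned from −0.48 to 0.03.

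Per kilobase of exon, the order of the genes within a muscle could be compared. In male gastrocnemius at 6 months Cacna1s had a median of 230 CPM per kilobase, Cacng1 111, Scn4a 108, Scn4b 58.9, Clcn1 31.5, Cacnb1 21.3 and Scn3b 0.310. In male diaphragm the values were 90.3 for Cacna1s, 35.2 for Scn4a, 34.3 for Scn4b, 9.63 for Clcn1, 8.07 for Cacng1, 6.81 for Cacnb1 and 1.51 for Scn3b. Cacng1 thus had 1 gene above it in gastrocnemius and 4 in diaphragm. In both muscles the pore gene had the highest value of its own channel, Cacna1s for calcium and Scn4a for sodium, and in diaphragm Scn4a and Scn4b lay close together.

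To examine ageing, each older age was compared with 6 months within each muscle and sex (8 fits). At 27 months (n = 10 against 8), 23 of 56 tests of a channel gene passed, 13 higher and 10 lower, against 15.3% of all gene tests over the 8 fits. By fit the members called were 5 in male gastrocnemius (23.3% of all genes), 4 in female gastrocnemius (29.3%), 4 in male tibialis anterior (17.8%), 4 in female tibialis anterior (21.9%), 4 in female soleus (18.8%) and 2 in male soleus (2.85%). In diaphragm none was called in females, where 1.61% of all genes were, or in males, where 8.65% were. At an unadjusted p below 0.05 there were 2 in female and 1 in male diaphragm, and limma-voom and DESeq2 also called 0 there. By limma-voom 21 of the 23 calls were kept, with 1 member called in male soleus and 4 in male gastrocnemius. A fold change above 1.5 was reached in 3 of 56 tests (4.18% of all gene tests). The 27-month libraries lay wholly outside the 6-month range in 5 of 56 tests, and the share of all genes that did so was not computed. These were Cacng1 in male gastrocnemius and in tibialis anterior of both sexes, Cacnb1 in female soleus and Scn4a in male gastrocnemius. The median log2 change over the 7 genes lay between −0.26 and 0.27 by fit, and that over all genes between −0.03 and 0.03.

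**Figure D2:**
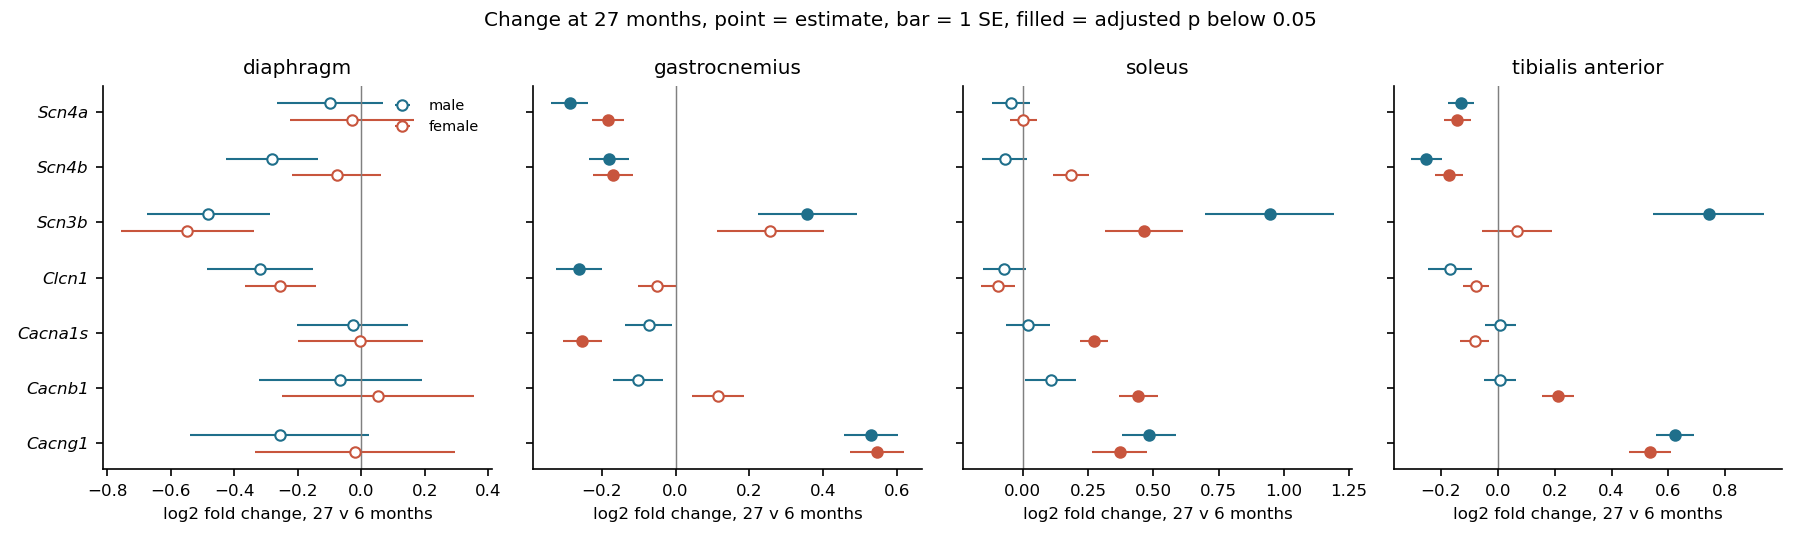
Log2 change of the 7 channel genes at 27 months against 6 months in each muscle and sex. Points are edgeR estimates, bars are 1 standard error and filled points passed at an adjusted p below 0.05; Cacng1 is filled and above 0 in the 6 limb fits, while Scn4a and Scn4b are filled and below 0 in gastrocnemius and tibialis anterior.

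Cacng1 rose in every limb muscle of both sexes. In male tibialis anterior it had 95.8, 103 and 106 CPM at 6 months and 121, 155 and 208 at 27 months, and the median passed through 121, 127, 134 and 138 at 12, 18, 21 and 24 months. All 10 old libraries lay above all 8 young ones. The fitted change was 0.62 ± 0.07 on the log2 scale (adjusted p = 2.35e-09), the only change at 27 months above 1.5-fold among the 3 genes of the L-type channel. In female tibialis anterior it went from 91.4, 105 and 115 to 125, 140 and 205 CPM, again without overlap (0.53 ± 0.07, adjusted p = 3.04e-07).

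In gastrocnemius the male libraries moved from 125, 139 and 150 CPM to 172, 179 and 291, without overlap (0.53 ± 0.07, adjusted p = 2.76e-07). Female libraries moved from 107, 122 and 150 to 125, 178 and 234, and 9 of 10 old libraries exceeded the highest young one (0.55 ± 0.07, adjusted p = 1.18e-07). In soleus the level was lower and the change of like size. Male libraries had 19.1, 25.0 and 30.8 CPM at 6 months and 28.9, 33.1 and 49.4 at 27 months (0.48 ± 0.10, adjusted p = 0.00337), with 9 of 10 above the young range. Female soleus went from 21.3, 24.2 and 31.7 to 23.7, 32.9 and 43.6 with 5 of 10 above the range (0.37 ± 0.10, adjusted p = 0.0089), a call that was lost when only library size was used for scaling (0.19, adjusted p = 0.181).

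In diaphragm no change of Cacng1 was called. In males Cacng1 had 0.446, 10.1 and 15.6 CPM at 6 months and 1.31, 8.93 and 11.2 at 27 months (−0.26 ± 0.28, adjusted p = 0.625), and in females 1.49, 8.03 and 9.45 against 0.622, 7.41 and 11.7 (−0.02 ± 0.32, adjusted p = 0.994). The standard error in diaphragm was several times that in limb muscle, and the 95% interval of the female estimate ran from −0.65 to 0.61. Whether muscles differed in the change was tested as an interaction, for which 9 of 84 tests of a channel gene passed, against 3.02% of all gene tests. In males the change in diaphragm was smaller than in gastrocnemius by −0.78 (adjusted p = 0.0245), than in soleus by −0.73 (adjusted p = 0.034) and than in tibialis anterior by −0.85 (adjusted p = 0.0192). All 3 were lost by limma-voom and all 3 were stronger without the libraries that stood apart, at −0.88, −0.81 and −0.93. In females no such pair passed.

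The rise of Cacng1 was seen before 27 months. It was called at 12 months in male gastrocnemius (0.30 ± 0.08, adjusted p = 0.0343; without the libraries that stood apart 0.25, adjusted p = 0.0703), at 18 months in tibialis anterior of males (0.34 ± 0.07, adjusted p = 0.00428) and females (0.28 ± 0.08, adjusted p = 0.0264; without the libraries that stood apart 0.26, adjusted p = 0.0634), and at 21 months in both of these and in male gastrocnemius (0.28 to 0.43). At 24 months it passed in 5 of the 6 limb fits, with female soleus as the exception. Male soleus then had its largest value, 0.60 ± 0.10 (adjusted p = 0.000381), which became 0.42 (adjusted p = 0.0604) within the largest stretch of consecutive sample numbers. The labels do not call such a stretch a batch. Leaving out any 1 library of the 6- and 27-month groups lost no Cacng1 call at 27 months.

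**Figure D3:**
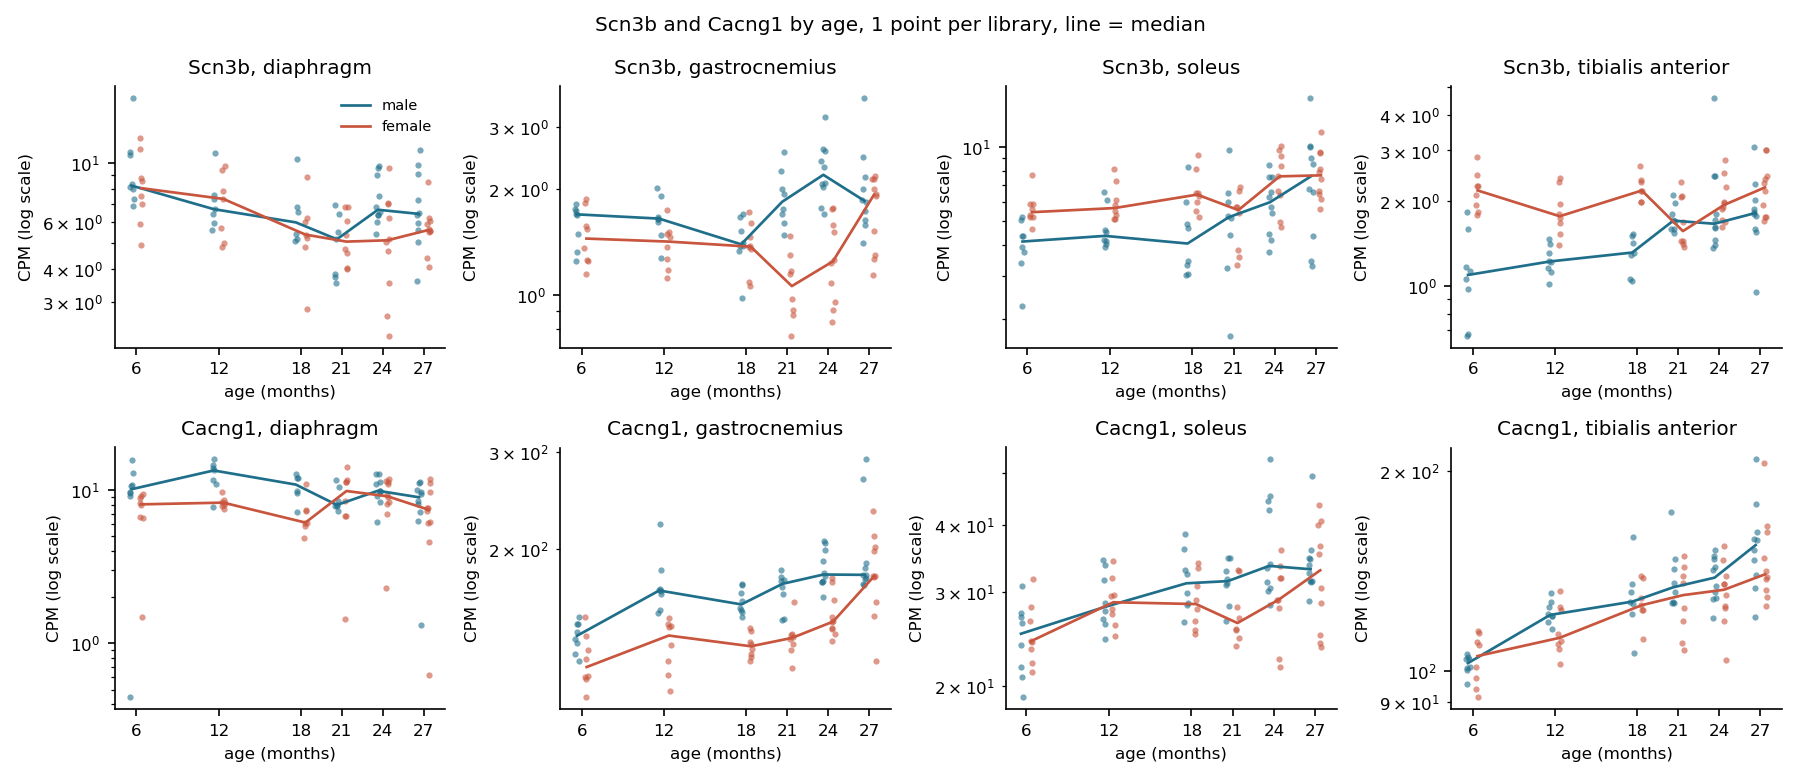
CPM of Scn3b and Cacng1 in each library by age, muscle and sex, on a log axis. Points are libraries and lines join the medians; Cacng1 climbs by its median in gastrocnemius, soleus and tibialis anterior and is not called in diaphragm, where the slope of Scn3b is downward.

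The other genes of the L-type channel were called in 2 of 8 fits each. Cacna1s fell in female gastrocnemius, from 1578, 1755 and 1822 CPM to 1277, 1371 and 1755 (−0.25 ± 0.05, adjusted p = 0.000204), with 7 of 10 old libraries below the young range, and it was also lower there at 21 months (−0.20) and 24 months (−0.25). In female soleus it rose, from 584, 623 and 715 to 658, 774 and 838 CPM (0.27 ± 0.05, adjusted p = 0.00021), with 8 of 10 above the range. The change in female gastrocnemius minus that in female soleus was −0.53 (adjusted p = 0.0242). With library size as the only scaling, the median of all genes moved to 0.142 in female gastrocnemius and −0.216 in female soleus, both Cacna1s calls were lost (−0.13, adjusted p = 0.0616, and 0.09, adjusted p = 0.133) and so was their difference (−0.21, adjusted p = 0.211). In the other 6 fits Cacna1s was not called, with estimates from −0.08 to 0.02. Male gastrocnemius, for example, had medians of 1503 CPM at 6 and 1427 at 27 months (−0.07 ± 0.06, adjusted p = 0.436).

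Cacnb1 rose in female soleus and tibialis anterior, and was not called in any male muscle. In female soleus it went from 44.2, 50.1 and 57.1 CPM to 59.0, 65.7 and 86.4, without overlap (0.44 ± 0.07, adjusted p = 2.24e-05), and it was already called at 18 months (0.31, adjusted p = 0.0126), 21 months (0.39, adjusted p = 0.000213) and 24 months (0.48, adjusted p = 7.02e-06). In female tibialis anterior it went from 95.5, 103 and 108 to 99.5, 115 and 141, with 8 of 10 above the young range (0.21 ± 0.06, adjusted p = 0.00498). Male soleus had 43.8, 46.0 and 56.4 CPM at 6 months and 36.1, 51.3 and 67.1 at 27 months, which overlapped widely (0.11 ± 0.10, adjusted p = 0.702). Markers of other cells moved in the same female fits. In female soleus 4 of 4 fibroblast markers were lower (their sum went from 838, 1254 and 1520 CPM to 498, 668 and 885). Of 5 macrophage markers 3 were lower there (their sum from 53.2, 72.7 and 82.8 to 33.4, 48.3 and 95.7), where 8.74% of all genes fell. Fibroblast markers also fell in males, 2 of 4 in gastrocnemius (12.6% of all genes), 2 of 4 in tibialis anterior (7.81%) and 1 of 4 in soleus (1.05%). In female tibialis anterior 8 of 8 liver markers were higher (12.1% of all genes), with sums from 0.341, 9.43 and 20.7 to 1.19, 71.8 and 612 CPM. Of 5 macrophage markers 2 were higher and 0 lower in that fit, the other way from female soleus. Of 5 adipocyte markers 2 were higher there, and of 4 fibroblast markers 1 was lower (9.84% of all genes). The part of these markers in the rises of Cacna1s, Cacnb1 and Cacng1 was not tested. The male minus female difference of the change was −0.32 ± 0.12 in soleus (adjusted p = 0.175) and −0.20 ± 0.08 in tibialis anterior (adjusted p = 0.183).

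Because the calcium channel genes share a library, their counts can be set against each other within it. For every 100 counts of Cacna1s, male gastrocnemius had 8.61, 9.12 and 9.51 counts of Cacng1 at 6 months and 11.3, 12.7 and 20.3 at 27 months, so that no old library reached down to the young range. The median went from 7.09 to 12.4 in female gastrocnemius, from 7.73 to 12.1 in male and 7.47 to 10.7 in female tibialis anterior, from 3.17 to 4.21 in male and 3.78 to 4.46 in female soleus, and from 1.68 to 1.36 in male and 1.76 to 1.44 in female diaphragm. Cacnb1 per 100 counts of Cacna1s went from 6.50 to 8.52 in female gastrocnemius, where Cacnb1 itself was not called (0.11 ± 0.07, adjusted p = 0.22), and from 6.25 to 6.33 in male gastrocnemius. These ratios show unequal change of a pair of genes and do not depend on the scaling of libraries.

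**Figure D4:**
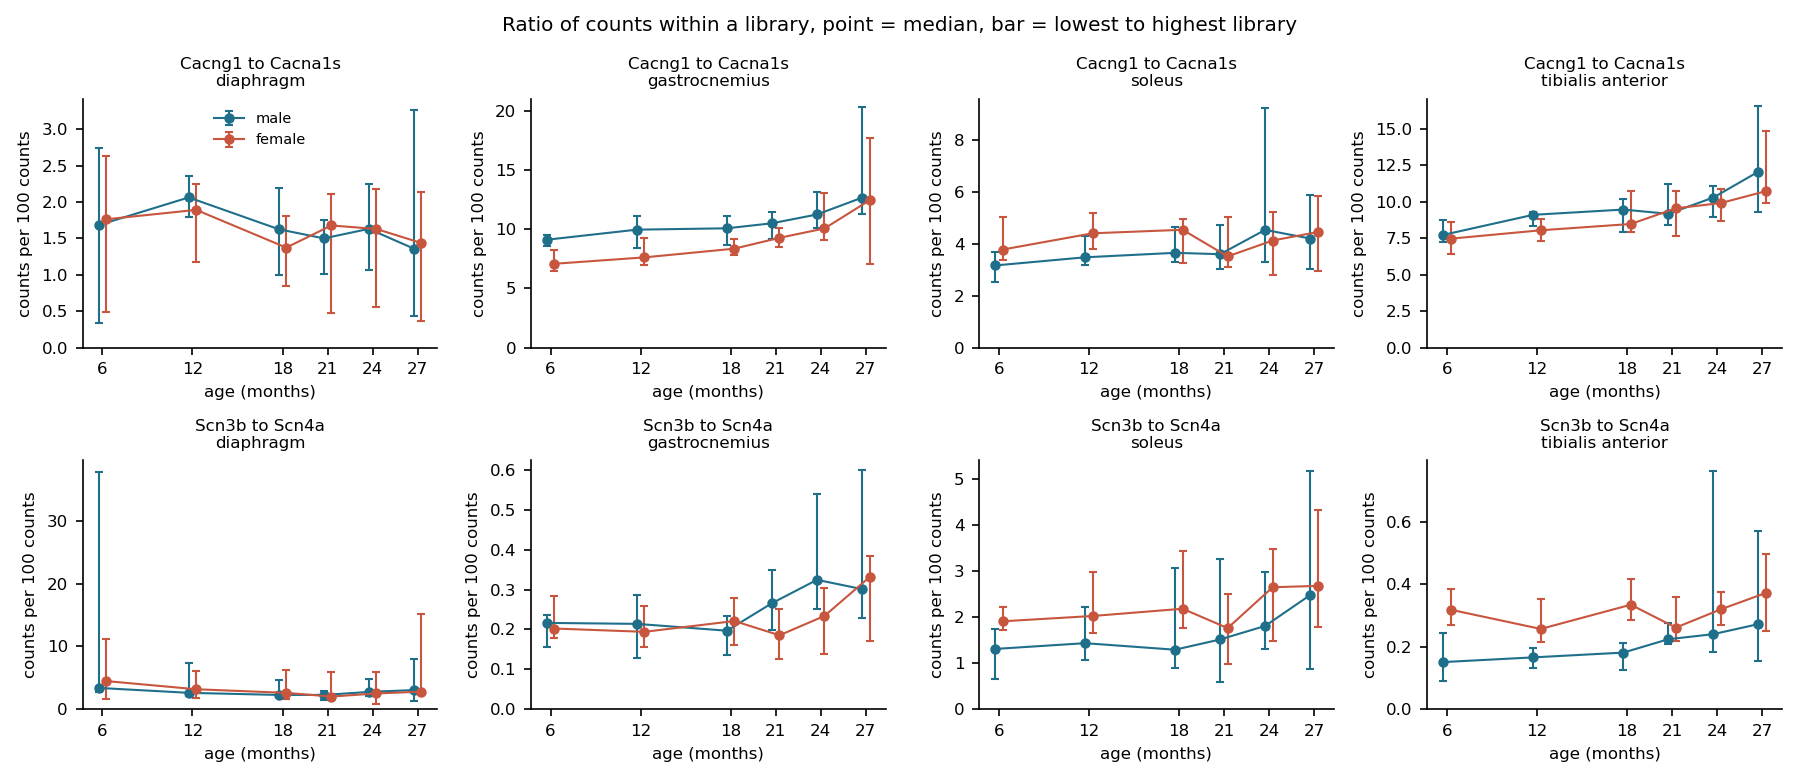
Counts of Cacng1 per 100 counts of Cacna1s and of Scn3b per 100 counts of Scn4a within each library, by age, muscle and sex. Points are medians and bars run from the lowest to the highest library; the Cacng1 ratio at 27 months lies above that at 6 months in gastrocnemius, tibialis anterior and soleus by its median, and not in diaphragm.

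Scn4a fell in gastrocnemius and tibialis anterior, near the threshold in the latter. In male gastrocnemius it had 687, 763 and 806 CPM at 6 months and 584, 611 and 677 at 27 months, with medians of 760, 714, 711 and 677 at the ages between. All 10 old libraries lay below all 8 young ones (−0.29 ± 0.05, adjusted p = 2.47e-05). In female gastrocnemius it went from 640, 693 and 734 to 552, 592 and 671, with 7 of 10 below the young range (−0.18 ± 0.04, adjusted p = 0.000939), and it was also lower at 21 months (−0.24, adjusted p = 0.000144) and 24 months (−0.23, adjusted p = 9.01e-05). With library size only, the female value was −0.06 (adjusted p = 0.302).

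In tibialis anterior, male libraries had 652, 749 and 774 CPM and then 540, 653 and 758 (−0.13 ± 0.05, adjusted p = 0.0437), and the call was lost in 11 of 18 fits that left out 1 library (27-month replicates 1, 4, 5, 7 and 8 and 6-month replicates 1, 2, 3, 4, 5 and 7), with values from −0.16 to −0.10. Female libraries went from 609, 674 and 735 to 486, 602 and 676 (−0.14 ± 0.05, adjusted p = 0.025), a call lost without 27-month replicate 0 (−0.11) or 6-month replicate 0 or 6. Without the libraries that stood apart both values were −0.11 and neither passed (adjusted p = 0.0897 in males and 0.122 in females). In soleus the medians were 337 and 314 CPM in males (−0.04 ± 0.07, adjusted p = 0.873) and 285 and 291 in females (0.00 ± 0.05, adjusted p = 0.993). Diaphragm was not called either, with −0.10 ± 0.17 in males and −0.03 ± 0.20 in females.

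Scn4b fell with Scn4a in gastrocnemius and tibialis anterior. Its largest called change was in male tibialis anterior, from 356, 397 and 418 CPM to 266, 321 and 371 (−0.25 ± 0.05, adjusted p = 0.00064), where all 10 old libraries lay below the young median and 7 below the young range. Female tibialis anterior gave −0.17 ± 0.05 (adjusted p = 0.0079; without the libraries that stood apart −0.14, adjusted p = 0.0749). In gastrocnemius the medians went from 294 to 262 CPM in males (−0.18 ± 0.05, adjusted p = 0.0124) and from 293 to 242 in females (−0.17 ± 0.05, adjusted p = 0.0159). The male value missed the threshold without 27-month replicate 1 (−0.15). In female soleus the estimate was upward, from 167, 186 and 201 to 161, 215 and 249 CPM (0.19 ± 0.07, adjusted p = 0.0526), and it was called at 21 months (0.25 ± 0.07, adjusted p = 0.00898). The change in female soleus exceeded that in female tibialis anterior by 0.38 (adjusted p = 0.0412; 0.0695 by limma-voom).

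Clcn1 was lower at 27 months by its estimate in all 8 fits and passed in 1. In male gastrocnemius it had 160, 171 and 190 CPM at 6 months and 98.4, 151 and 165 at 27 months, with 9 of 10 old libraries below the young range (−0.26 ± 0.06, adjusted p = 0.00136). Female gastrocnemius, with 139, 153 and 166 and then 122, 146 and 175 CPM, overlapped widely (−0.05 ± 0.05, adjusted p = 0.487). The male minus female difference did not pass (−0.19 ± 0.08, adjusted p = 0.205). In female soleus Clcn1 was called at 21 months (−0.18, adjusted p = 0.048) and 24 months (−0.21, adjusted p = 0.0189), with medians of 59.8 and 61.1 CPM against 69.4 at 6 months, and not at 27 months (67.4 CPM, −0.10 ± 0.06, adjusted p = 0.327). Both calls were lost without the libraries that stood apart (−0.12 and −0.16). In male diaphragm all 10 old libraries lay below the young median of 52.3 CPM, down to 8.47 CPM in 1 library, but the estimate did not pass (−0.32 ± 0.17, adjusted p = 0.223; without the libraries that stood apart −0.25, adjusted p = 0.0459).

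**Figure D5:**
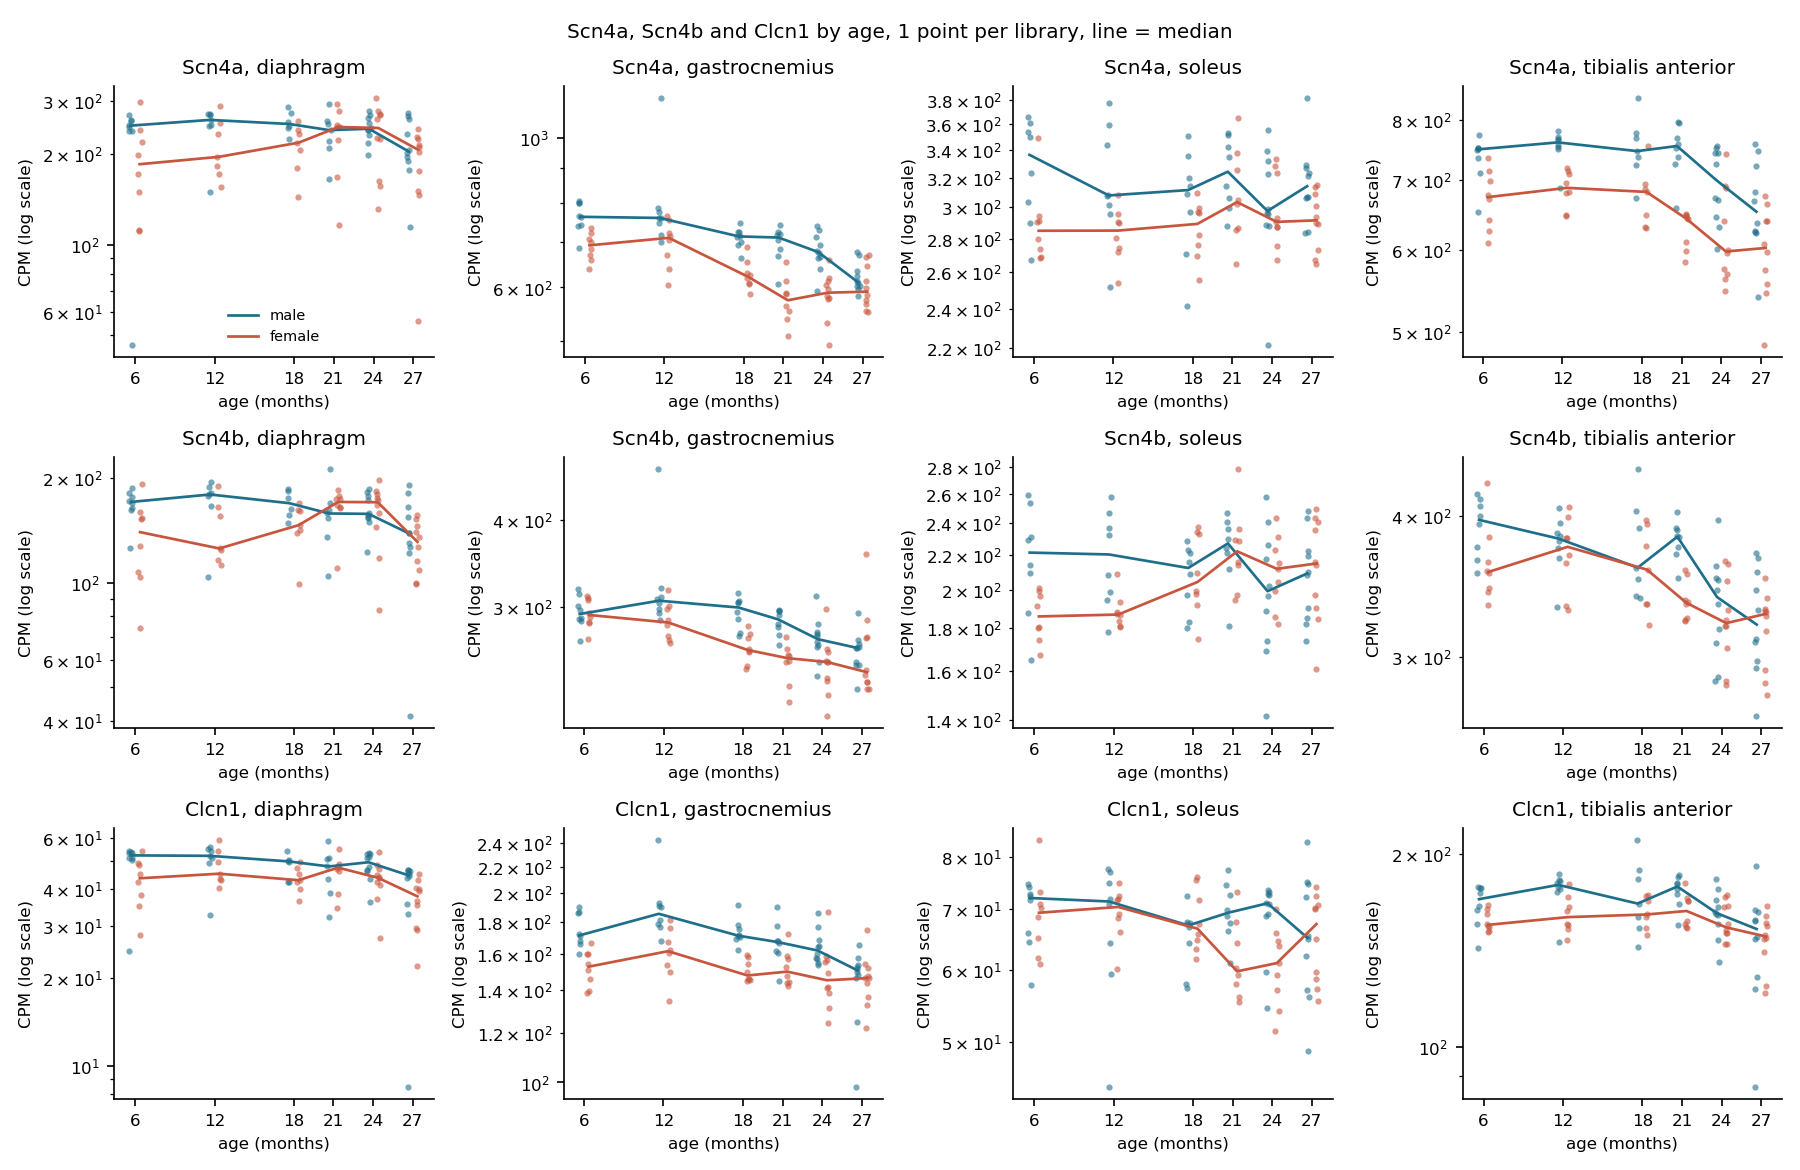
CPM of Scn4a, Scn4b and Clcn1 in each library by age, muscle and sex, on a log axis. Points are libraries and lines join the medians; in male gastrocnemius the Scn4a median moves from 763 at 6 months to 611 at 27 months.

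Scn3b changed most by fold and was the least certain. In male soleus it had 2.26, 4.14 and 5.19 CPM at 6 months and 3.29, 7.63 and 15.9 at 27 months, with 7 of 10 above the young range (0.95 ± 0.25, adjusted p = 0.0209). In male tibialis anterior it went from 0.669, 1.09 and 1.82 to 0.954, 1.81 and 3.09 (0.74 ± 0.20, adjusted p = 0.00583), after 0.87 ± 0.20 at 24 months (adjusted p = 0.00179). With Cacng1 in male tibialis anterior, these were the 3 changes of a member above 1.5-fold at 27 months. Smaller rises were called in female soleus, from 4.65, 5.45 and 7.73 to 5.63, 7.68 and 11.5 CPM (0.47 ± 0.15, adjusted p = 0.0217; without the libraries that stood apart 0.42, adjusted p = 0.0671), and in male gastrocnemius, from 1.25, 1.69 and 1.81 to 1.40, 1.85 and 3.62 (0.36 ± 0.13, adjusted p = 0.0455).

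All 4 of these calls of Scn3b were lost within the largest stretch of consecutive sample numbers, where the estimates were 0.61 in male soleus (adjusted p = 0.285), 0.42 in male tibialis anterior (adjusted p = 0.0694), 0.41 in female soleus (adjusted p = 0.0944) and 0.10 in male gastrocnemius (adjusted p = 0.625). Those stretches held 6 of 8 young libraries and 6 of 10 old male or 8 of 10 old female ones. Single libraries also decided calls. Male soleus lost its call without 27-month replicate 8 (0.77) or 6-month replicate 5 (0.86), female soleus without 27-month replicate 0 (0.38) or 6-month replicate 0 (0.43), and male gastrocnemius in 8 of 18 fits that left out 1 library, with 27-month replicates 2, 6 and 8 and 6-month replicates 0, 1, 5, 6 and 7 as the libraries left out and 0.25 as the lowest value, without 27-month replicate 8. No single library decided the call in male tibialis anterior.

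In diaphragm the slope of Scn3b over all ages was downward. Male libraries had 6.89, 8.23 and 17.6 CPM at 6 months, a median of 5.17 at 21 months (−0.97 ± 0.22, adjusted p = 0.00516) and 3.60, 6.44 and 11.2 at 27 months (−0.48 ± 0.19, adjusted p = 0.107). Female libraries had 4.94, 8.05 and 12.4 and then 4.05, 5.61 and 8.48 (−0.55 ± 0.21, adjusted p = 0.182), with medians of 7.34, 5.39, 5.07 and 5.12 between. The slope was called in both sexes, at −0.31 ± 0.08 (log2 change per doubling of age) in females (adjusted p = 0.0112) and −0.24 ± 0.08 in males (adjusted p = 0.0437, lost by limma-voom). The difference in this change between diaphragm and a limb muscle passed in 4 of 6 pairs. The change in diaphragm minus that in soleus was −1.40 in males (adjusted p = 0.000393) and −1.01 in females (adjusted p = 0.00205). Against male tibialis anterior it was −1.18 (adjusted p = 0.00878) and against female gastrocnemius −0.80 (adjusted p = 0.0297), both lost by limma-voom. The pairs that did not pass were male gastrocnemius (−0.81, adjusted p = 0.0723) and female tibialis anterior (−0.59, adjusted p = 0.143).

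Set against Scn4a, the range of Scn3b over muscles was wide. For every 100 counts of Scn4a at 6 months there were medians of 3.38 counts of Scn3b in male and 4.47 in female diaphragm, 1.31 and 1.91 in soleus, 0.216 and 0.202 in gastrocnemius and 0.151 and 0.319 in tibialis anterior. At 27 months the soleus medians were 2.48 and 2.68, and those of diaphragm 3.04 and 2.78.

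Over the older ages, the number of channel gene tests called grew with age. It was 1 of 56 at 12 months (0.36% of all gene tests), 3 at 18 months (3.17%), 13 at 21 months (9.93%), 16 at 24 months (12.1%) and 23 at 27 months. With a fold change above 1.5 as well, there were 1 at 21 months (3.53% of all gene tests), 2 at 24 months (3.55%) and 3 at 27 months. The slope on log2 age passed in 26 of 56 tests, 14 upward and 12 downward (19.9% of all gene tests). Cacng1 rose in the 6 limb fits, by 0.12 to 0.26 per doubling of age, with the steepest slope in male tibialis anterior (0.26 ± 0.03, adjusted p = 1.24e-09). Scn4b fell in gastrocnemius and tibialis anterior of both sexes (−0.11 to −0.09) and rose in female soleus (0.10, adjusted p = 0.00365). Among the 5 members and fits with a fold change above 1.5 at some age, a line described the course better than a constant in 3 (Cacng1 in male soleus and tibialis anterior, Scn3b in male tibialis anterior) and the constant was kept in 2 (Scn3b in male diaphragm and soleus).

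Males and females were compared over the 6 ages with equal weights. In gastrocnemius 6 of 7 genes differed (58.3% of all genes), in soleus 5 of 7 (30.9%), in tibialis anterior 5 of 7 (47.8%) and in diaphragm 0 of 7 (18.9%). In diaphragm 5 passed at an unadjusted p below 0.05, limma-voom called 0 and DESeq2 1, and without the libraries that stood apart 6 were called. Cacnb1 was lower in males in each limb muscle by nearly the same amount, −0.26 ± 0.03 in gastrocnemius (adjusted p = 2.48e-13), −0.24 ± 0.04 in soleus (adjusted p = 3.01e-08) and −0.24 ± 0.02 in tibialis anterior (adjusted p = 3.33e-15). Scn4a was higher in males, by 0.16 ± 0.02, 0.10 ± 0.03 and 0.17 ± 0.02 in the same order (adjusted p = 2.72e-12, 0.00105 and 7.80e-12). Scn3b was higher in males in gastrocnemius (0.36 ± 0.06, adjusted p = 8.38e-08) and lower in soleus (−0.29 ± 0.09, adjusted p = 0.00615) and tibialis anterior (−0.41 ± 0.07, adjusted p = 2.10e-07). Cacna1s was called in soleus (0.21 ± 0.03, adjusted p = 1.56e-09). Its estimate was of the same size in diaphragm but missed the threshold (0.21 ± 0.08, adjusted p = 0.056; 0.0495 by DESeq2), and it was 0.01 in gastrocnemius and −0.00 in tibialis anterior.

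Whether the change from 6 to 27 months differed between the sexes was tested directly, and 0 of 28 tests passed by edgeR. The share of all genes was 1.6% in gastrocnemius, 1.73% in tibialis anterior, 0.855% in soleus and 0.0% in diaphragm. At an unadjusted p below 0.05 there were 8 of 28, and limma-voom called 0. The smallest p belonged to Scn3b in tibialis anterior, where the male change exceeded the female one by 0.67 ± 0.23 (adjusted p = 0.106). Without the libraries that stood apart 1 test passed, that of Cacna1s in gastrocnemius.

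Other genes of the same channel families and of the triad were read from lists. Among the other sodium channel genes, Scn2b in male gastrocnemius and Scn2a1 and Scn8a in female gastrocnemius were called higher at 27 months, and Scn2a1 lower in female tibialis anterior. Of 12 partners of the voltage sensor, 5 fell and 1 rose in male gastrocnemius and 6 fell and 1 rose in female gastrocnemius, where 12.6% and 14.6% of all genes fell. Stac3, an adaptor that CaV1.1 needs to reach the membrane, fell in both (−0.22 ± 0.05, adjusted p = 0.00067, and −0.13 ± 0.05, adjusted p = 0.0433). Ryr1, the calcium release channel that CaV1.1 opens, fell in female gastrocnemius (−0.14 ± 0.05, adjusted p = 0.0274) and rose in female soleus (0.46 ± 0.09, adjusted p = 0.00026), as did Cacna2d1, the α2δ1 subunit of the same channel (−0.27 ± 0.07, adjusted p = 0.00179, and 0.20 ± 0.06, adjusted p = 0.00833). In female soleus 4 of 12 rose and 0 fell, where 10% of all genes rose and 8.74% fell. Rrad, a small GTPase that binds calcium channel β subunits, was the 1 that rose in gastrocnemius. It also rose in tibialis anterior of both sexes and in male diaphragm.

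The denervation list holds acetylcholine receptor subunits, MuSK and myogenin among 13 genes. At 27 months 12 of 13 were higher in gastrocnemius of either sex, 11 in tibialis anterior of either sex, 9 in male and 8 in female soleus, 3 in male and 0 in female diaphragm. Genes higher were 10.6% and 14.6% of all genes in male and female gastrocnemius, 9.97% and 12.1% in tibialis anterior, 1.8% and 10% in soleus and 5.13% and 0.624% in diaphragm. Chrne, the adult ε subunit of the receptor, was called lower in male tibialis anterior and female soleus, and higher in female gastrocnemius. Chrna1, the receptor's α subunit, rose by 1.12 in male and 0.91 in female gastrocnemius. Fibre type markers also moved in gastrocnemius. Myh4, the fast IIB myosin, fell by 0.32 in males and 0.33 in females on the log2 scale. Myh7, the slow myosin, rose by 0.59 (adjusted p = 0.0331) and 0.71. Of 8 fast fibre markers 6 fell and 1, Myh1, rose in males, and 7 fell in females, where 12.6% and 14.6% of all genes fell. Of 8 slow fibre markers 4 rose in males and 7 in females. In female tibialis anterior 4 of 8 slow fibre markers rose and 1 fell (12.1% and 9.84% of all genes). The median fibre marker sum in gastrocnemius went from 83421 to 69527 CPM in males and from 79451 to 65615 in females. The part of these shifts in the changes of the channel genes was not tested.

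Over all libraries, as deviations from the mean of each group, the channel genes moved together to different degrees. Scn4a and Cacna1s had r = 0.94 (0.914 over the 373 libraries that did not stand apart), Scn4a and Cacnb1 0.817 (0.67), and Cacnb1 and Cacng1 0.847 (0.537). Scn4b and Cacng1 had r = 0.122. Scn3b had a negative r with each of the other 6, from −0.364 to −0.181, and −0.0074 with Cacng1 without the libraries that stood apart. Taken muscle by muscle, some pairs were not alike. For Scn3b with Cacng1 the diaphragm gave −0.434, but gastrocnemius gave 0.361, tibialis anterior 0.0644 and soleus 0.0681. Cacnb1 with Cacng1 reached 0.928 for diaphragm, against 0.111 for gastrocnemius, 0.460 for tibialis anterior and 0.292 for soleus. Scn4a with Cacna1s stayed between 0.839 (tibialis anterior) and 0.965 (diaphragm). Each pair shares its libraries, their depth and their RNA, so these are descriptions of the libraries.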

How the data were processed

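RNA-seq libraries of 4 muscles of C57BL/6J mice were grouped by the muscle, sex and age in their labels. At 21 months 7 male diaphragm libraries are labelled, and at 18 months 7 male tibialis anterior ones, which differs from the study's own sample list. The labels were used. The authors deposited 1 table of raw read counts per gene and library, made with ArrayStudio (version not given in the sources used here) on mm10, with gene models drawn from RefSeq in house. The deposited counts are whole numbers without normalization. The libraries were depleted of ribosomal RNA and kept strand.

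Of 25091 rows, 633 that repeated a symbol were left out (0.0335% of counts), keeping the row with the largest total. No 2 libraries were identical, and 0 libraries went against their sex label. Genes with enough counts (filterByExpr) were tested with edgeR 4.0.16 in R 4.3.3, with TMM scaling, the quasi-likelihood test and Benjamini-Hochberg adjustment at 0.05. For age changes and for the slope on log2 age, 1 fit over the 6 ages was made per muscle and sex. Muscles were compared in 1 fit per sex, and sexes in 1 fit per muscle. The course of genes changed more than 1.5-fold was described by a constant, a line or a 4-parameter logistic curve on log2 CPM (0.5 added to counts), chosen by BIC with margins of 6 and 2. Likeness was Pearson's r over the 48 group means. The tests of age change, sex difference, sex by age and muscle difference were tried on simulated counts with known changes, in limb muscle only. The slope on age and the interaction of muscle and age were not tried in this way.

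A library stood apart if its total was above 2 times, or below the inverse share of, the median of its muscle and sex. It also stood apart if its median correlation lay more than 5 median absolute deviations below the rest. The last rule was a sum of 8 liver markers above 1000 CPM, taken here on unscaled totals. Alternatives were limma 3.58.1 (voom), DESeq2 1.42.0, other scalings, no filter, the replicate number as a block, stretches of consecutive sample numbers, and leaving libraries out. The 7 members and all gene lists were chosen with earlier results of these data known. The genes named are the 7 members in every comparison, the 3 most like each of them, and Cacna2d1, Stac3, Ryr1, Chrna1, Chrnd, Chrng, Musk, Ncam1, Myh4, Myh2, Myh1 and Myh7. A pair of other genes of that rule is not reported here. Chrne, Rrad, Scn2a1, Scn2b and Scn8a were named after their values were seen. Median counts of Scn3b over all ages were 85 to 122 in gastrocnemius and tibialis anterior, lower than those of the other members. The share of counting error in the spread was not measured.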

Additional observations from a re-analysis of the deposited data

Results flagged for a closer look

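In 336 groups of 6 to 10 libraries, Dixon's test picked out 47 values of a channel gene in 23 libraries, of which 29 lay in libraries that stood apart. Chance alone picks about 1 in 20 groups. Values are in CPM, with the range of the other libraries of the group where it helps.

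In male diaphragm, replicate 2 at 6 months was lowest for 6 genes: Scn4a 46.6 (others from 238), Scn4b 126, Clcn1 24.7, Cacna1s 134, Cacnb1 1.68 and Cacng1 0.446. Replicate 2 at 12 months was lowest for Scn4a 149, Scn4b 104, Clcn1 32.6, Cacna1s 361 and Cacnb1 18.9. At 27 months replicate 6, one of the libraries with liver transcripts, was lowest for Scn4a 115, Cacnb1 4.35 and Cacng1 1.31, and replicate 8 for Scn4b 41.4 and Clcn1 8.47. At 24 months replicate 5 had Clcn1 at 36.1 and replicate 9 Scn4b at 123.

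In female diaphragm, replicate 0 at 27 months was lowest for Scn4a 55.8, Cacna1s 173, Cacnb1 3.06 and Cacng1 0.622. Low Cacnb1 and Cacng1 were also found in replicate 0 at 21 months (5.55 and 1.43) and replicate 3 at 24 months (8.00 and 2.30), and low Cacng1 in replicate 2 at 6 months (1.49). Scn4b was low in replicate 4 at 18 months (98.9) and replicate 7 at 21 months (110).

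In male gastrocnemius, replicate 7 at 12 months was highest for 5 genes: Scn4a 1143 (others up to 786), Scn4b 473, Clcn1 242, Cacna1s 2631 and Cacnb1 140. It stood apart. Single low values were Scn3b 0.984 in replicate 6 at 18 months, Cacnb1 71.2 in replicate 0 at 21 months and Cacna1s 1271 in replicate 8 at 24 months. Female gastrocnemius replicate 0 at 27 months had Scn4b at 358, above the others.

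In soleus, female replicate 4 at 6 months was highest for Scn4a (349) and Scn3b (7.73). In males Scn4a was lowest in replicate 8 at 24 months (222) and highest in replicate 5 at 27 months (381), and Cacng1 was highest in replicate 6 at 27 months (49.4). In male tibialis anterior, replicate 0 at 12 months was lowest for Scn4a (687), Clcn1 (146) and Cacnb1 (79.3), and Scn3b was highest in replicate 8 at 24 months (4.59).

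The change from 6 to 27 months differed between muscles in 9 of 84 tests of the interaction. As diaphragm minus limb muscle on the log2 scale, Scn3b had −0.80 against gastrocnemius and −1.01 against soleus in females, and −1.40 against soleus and −1.18 against tibialis anterior in males. Cacng1 in males had −0.78 against gastrocnemius, −0.73 against soleus and −0.85 against tibialis anterior. In females Cacna1s had −0.53 for gastrocnemius minus soleus, and Scn4b 0.38 for soleus minus tibialis anterior. What sets these differences was not tested.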

How the results depend on the processing

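Among channel gene tests against 6 months, the 23 calls at 27 months ranged from 16 (library size as the only scaling) to 24 over the settings that kept the threshold, and from 22 to 24 when 1 library was left out. With library size only, 12 of the 23 were still called and 11 were lost. Bonferroni adjustment left 6, and asking for a fold change above 1.5 left 3. The same 2 changes left 5 and 2 of 16 calls at 24 months, 2 and 1 of 13 at 21 months, 0 and 0 of 3 at 18 months, and 0 and 0 of 1 at 12 months. That 1 call was also lost with library size only (0) and without the libraries that stood apart (0). The number of calls was 21 to 26 for the slope on age (26 as reported), 66 to 77 for the muscle difference (73) and 12 to 22 for the sex difference (16). With library size only, 18 of the 26 slopes, 62 of the 73 muscle differences and 11 of the 16 sex differences were still called in the same direction. The interaction of muscle and age gave 3 calls by limma-voom and 14 without the libraries that stood apart against 9, and that of sex and age 1 against 0 without those libraries. The female diaphragm minus soleus difference of Scn3b turned to −0.072 with the mean of the 6 ages, and the male one of Scn4b to 0.034 with library size only. DESeq2 was not run on slopes and interactions. The male diaphragm was also fitted without its 2 libraries with liver transcripts, a choice made after seeing the data: 24 calls, with Scn3b at 27 months added (−0.56, adjusted p = 0.0396). The causes of these changes were not tested.

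Replicate numbers are shared by groups but did not clearly pair the libraries. Same-numbered libraries of different muscles had a median correlation of deviations of 0.0361, against −0.0045 for other numbers. By pair of muscles the medians ran from 0.0083 to 0.0969 (gastrocnemius and tibialis anterior). Across muscles 154 of 599 correlated best with their own number, against 132 of 939 across ages, where the mice differ. Partial sharing of mice was not tested further, and the main muscle tests took the libraries as independent. With the replicate block there were 22 calls at 27 months, 22 slopes, 73 muscle differences, 15 sex differences, 0 interactions of sex and age and 5 of muscle and age. At 12, 18, 21 and 24 months the block gave 1, 3, 13 and 16 calls.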

Other observations

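Over the means of the 48 groups of muscle, sex and age, the genes most like each channel gene were read off by Pearson's r of log2 CPM. The groups share muscles and libraries, and differences between muscles make most of each r, so these values describe profiles over muscles. For Scn4a they were Tmod4 (0.996), Maf1 (0.995) and Jph1 (0.995), and for Clcn1 Ubac1 (0.993), Scn4a (0.993) and Ampd1 (0.993). Tmod4 caps thin filaments in muscle, Jph1 holds the transverse tubule to the sarcoplasmic reticulum, and Ampd1 is the muscle AMP deaminase. For Cacna1s they were Mlf2, Ak1 and Rtn2 (all 0.990), for Cacng1 Arfgap2 (0.992), Adrm1 (0.991) and Pdlim3 (0.991), and for Cacnb1 Qars (0.992), Psmc5 (0.989) and Prmt7 (0.988). Scn4b came nearest to Vdac3 (0.984), Ankrd40 (0.983) and Fundc2 (0.982), and Scn3b to Mapk4 (0.951), Cand1 (0.948) and Cers1 (0.947).

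Among the other chloride channel genes at 27 months, Clcn4-2 was lower in male diaphragm, in male and female tibialis anterior and in female gastrocnemius, Clcn7 was lower in female soleus and Clcn3 higher in female tibialis anterior. Of 17 other calcium channel genes tested, 6 fell and 1 rose in male gastrocnemius, where 12.6% of all genes fell and 10.6% rose. In female gastrocnemius 3 fell and 5 rose (14.6% and 14.6% of all genes), and in female soleus 1 fell and 5 rose (8.74% and 10%). Cacna2d4 was among the genes that fell in gastrocnemius and tibialis anterior of both sexes, and Cacna1i, a T-type channel, among those that rose there. Of 10 genes for channel anchoring, turnover and splicing, 3 fell and 1 rose in female gastrocnemius, the fit with the most calls. These genes were picked out after their values were seen.

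Among the denervation genes, Chrnd rose by 1.07 in male and 1.25 in female gastrocnemius, Musk by 0.37 and 0.90 and Ncam1 by 0.33 and 0.46. Chrng, the fetal receptor subunit, was called in each limb fit at low counts. Myh1 rose in male gastrocnemius (0.52) and Myh2 fell in female tibialis anterior (−1.56).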
